A study of Mus musculus with 6 samples.

Results

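The genes described here are 40 genes of mitosis and the G2/M phase of the cell cycle, picked by symbol from a deposited count table of 54532 genes. The rule uses no measured value, but the list was drawn up with earlier results of these data known. All 40 were in the table and all 40 passed the filter on low counts. They were measured by RNA sequencing in bone-marrow-derived mouse macrophages treated with MSU, taken here as monosodium urate, the crystal of gout, since the series concerns gout. There were 2 groups of 3 libraries, one labelled Tet2 knockout and one wild-type, and both carried the MSU treatment. TET2 is an enzyme that oxidises 5-methylcytosine in DNA, and its gene is often mutated in clonal haematopoiesis. The Tet2 allele, the strain, age and sex of the mice and the dose and time of MSU are not given in the sources used here. Whether each library had its own mouse or culture is also not stated, and the p-values below therefore reflect variation among the libraries alone, which could be technical.

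Cells enter mitosis when the kinase CDK1 is activated by A- and B-type cyclins, and they leave it when the anaphase-promoting complex has the B-type cyclins destroyed. The transcripts of genes that carry out these steps rise late in each cycle under FOXM1 and the complex of B-Myb with MuvB, which act with NF-Y through CHR and CCAAT elements near the start of transcription. In resting cells the DREAM complex holds many of the same promoters silent, so these transcripts are widely used as marks of dividing cells. Macrophages grown from marrow divide in response to colony-stimulating factor 1, the ligand of the receptor encoded by Csf1r.

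The promoters come first because they show what the members share in sequence. RefSeq windows from 250 bases before to 50 bases after the start of transcription (build GRCm38.p6) were matched by symbol for 33 of the 40 genes, with 35 windows in all. The core of the CHR, TTTGAA, searched on both strands, occurred in 28 of the 35 windows (80%), against 12.1% of the 12533 windows of genes tested and 17.9% of all 32851 windows of the table. CCAAT, searched on both strands, also occurred in 28 of the 35 (80%), against 37.6% and 37.4%. Both occurred in 24 of the 35 (68.6%), against 4.92% and 6.95%. A match of letters is a description and does not show that a factor binds. The windows of 4 genes are printed 5′ to 3′ on the strand of the gene, with the matches to either motif in capitals. They set Ccnb2 and Mki67, the members with the largest rises, beside Plk1 and Cdc20, which hold the same letters and were not called.
Ccnb2: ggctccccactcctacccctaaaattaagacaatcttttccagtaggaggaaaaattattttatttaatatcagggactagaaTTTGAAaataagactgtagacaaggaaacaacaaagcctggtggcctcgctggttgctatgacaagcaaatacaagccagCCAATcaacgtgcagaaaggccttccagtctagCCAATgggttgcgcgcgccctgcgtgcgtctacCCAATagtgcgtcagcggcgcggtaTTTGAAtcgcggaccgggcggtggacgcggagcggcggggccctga
Mki67: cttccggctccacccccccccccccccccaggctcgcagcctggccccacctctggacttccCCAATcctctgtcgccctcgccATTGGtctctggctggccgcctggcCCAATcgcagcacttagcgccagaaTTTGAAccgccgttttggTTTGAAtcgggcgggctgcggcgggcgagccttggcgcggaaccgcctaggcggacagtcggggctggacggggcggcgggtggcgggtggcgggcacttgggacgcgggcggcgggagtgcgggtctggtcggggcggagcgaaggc
Plk1: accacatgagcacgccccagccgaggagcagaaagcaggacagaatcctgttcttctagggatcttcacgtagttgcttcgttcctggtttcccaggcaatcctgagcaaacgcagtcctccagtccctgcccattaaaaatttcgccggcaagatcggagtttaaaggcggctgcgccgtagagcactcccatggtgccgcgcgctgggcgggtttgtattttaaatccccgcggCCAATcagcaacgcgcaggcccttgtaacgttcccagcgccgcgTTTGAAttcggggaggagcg
Cdc20: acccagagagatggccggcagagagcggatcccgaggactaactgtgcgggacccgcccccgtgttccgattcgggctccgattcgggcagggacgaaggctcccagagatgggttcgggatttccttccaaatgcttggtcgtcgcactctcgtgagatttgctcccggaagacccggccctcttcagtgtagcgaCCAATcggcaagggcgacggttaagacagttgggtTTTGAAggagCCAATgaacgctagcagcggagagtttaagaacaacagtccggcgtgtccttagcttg
The windows lie at chr9:70421505-70421804 on the minus strand (Ccnb2), chr7:135716330-135716629 on the minus strand (Mki67), chr7:122159185-122159484 on the plus strand (Plk1) and chr4:118437294-118437593 on the minus strand (Cdc20). With the first transcribed base as 1, the CHR core begins at -167 and 5 in Ccnb2, at -116 and -98 in Mki67, at 31 in Plk1 and at -18 in Cdc20. CCAAT or its complement begins at -87, -54 and -21 in Ccnb2, at -188, -166 and -141 in Mki67, at -14 in Plk1 and at -53 and -8 in Cdc20.

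Total counts ran from 11997104 to 14481843 per library, and the lowest count of a mitosis gene in any library was 99. Levels are given as CPM, counts scaled to a common library total, after TMM scaling, which corrects for library composition. Differences are log2 values, the libraries labelled Tet2 knockout minus the wild-type libraries, from an edgeR quasi-likelihood fit to the 13175 genes that passed the filter, and a gene is called at an adjusted p under 0.05. Tet2, read as a check of the labels, stood at 32.8, 34.2 and 34.1 CPM in the libraries labelled knockout and at 29.3, 27.9 and 30.7 CPM in the wild-type libraries. It was not lower under the knockout label (log2 difference 0.20, SE 0.07; edgeR adjusted p = 0.0159). Counts over the whole gene cannot show the loss of a part of it, so the check does not settle the labels, and every direction below is that of the libraries labelled Tet2 knockout.

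Mitosis genes were modestly higher in the libraries labelled Tet2 knockout, led by Mki67, Ccnb2 and Kif23. The 7 members grouped under chromosome structure were all called higher. Of the 40 genes, 21 (52.5%) were called higher and 0 were called lower by edgeR. Over all genes tested 21.6% were called higher, 19.2% lower and 40.9% in either direction. At an unadjusted p under 0.05 the edgeR counts were 26 higher and 0 lower, and DESeq2 called 19 higher and 0 lower. The shares of all genes tested under these alternatives are not given here, so both counts stand without a background. The median log2 difference of the 40 genes was 0.21, and that of all genes tested was -0.0031. The called members ran from 0.18 to 0.70 on the log2 scale, and 3 of them, Mki67, Ccnb2 and Kif23, passed 1.5-fold.

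In 24 of the 40 genes all 3 libraries labelled knockout stood above all 3 wild-type libraries, and in 0 they stood below, where the shares of all genes tested were 24.8% and 23%, or 47.8% in either direction. These 24 were 18 of the called genes and 6 that were not called (Nek2, Kif4, Ect2, Foxm1, Aurka and Cenpf). The spread between libraries was small, a common biological coefficient of variation of 2.63% over the genes tested. With a coefficient of 0.1 assumed for every gene, 7 of the 40 were called, all higher (Mki67, Ccnb2, Kif23, Incenp, Top2a, Ncapg and Ncaph), where 9.28% of all genes tested were called higher.

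Summed over the 40 genes, the level was 1549, 1581 and 1565 CPM in the libraries labelled knockout and 1327, 1276 and 1321 CPM in the wild-type libraries. The groups did not overlap, and the mean sum was 19.7% higher under the knockout label (1565 ± 15.6 against 1308 ± 28 CPM, SD, n = 3 each). Without Mki67 the sum was 16.0% higher, and without Mki67 and Top2a it was 14.5% higher (1259 ± 16.5 against 1099.5 ± 19.1 CPM, SD, n = 3 each). Wild-type replicate 2 was the lowest of the 6 libraries for 18 of the 40 genes, and knockout replicate 2 was the highest for 20. In RNA from whole cultures, more dividing cells and more RNA of these genes per cell cannot be told apart.

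**Figure D1:**
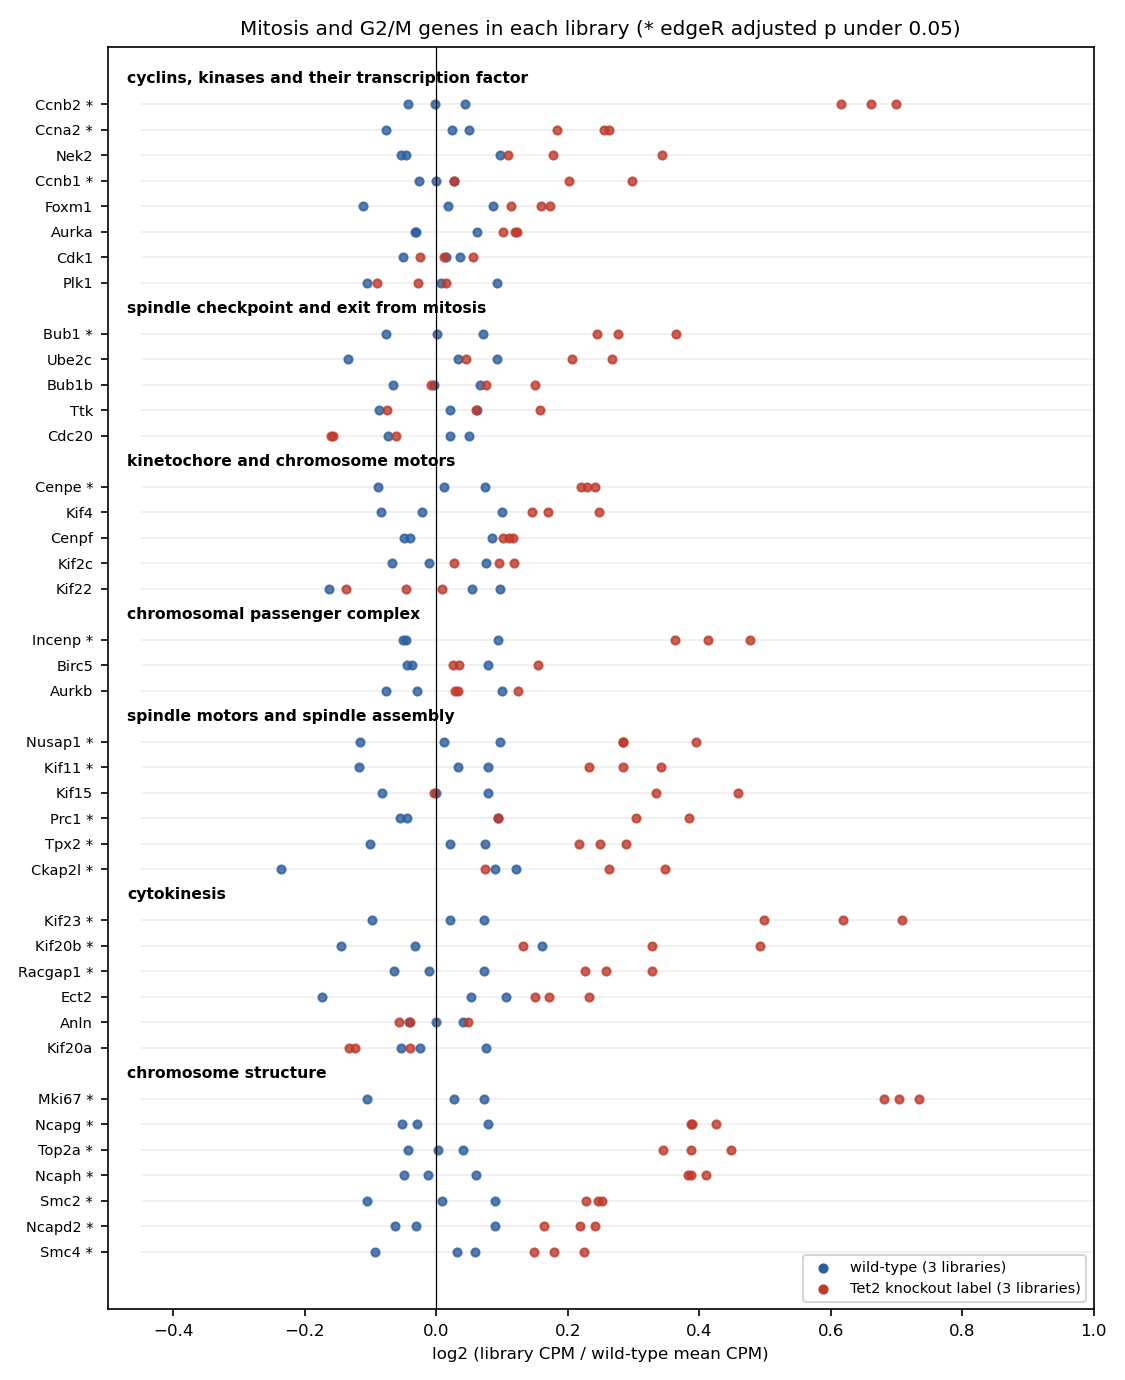
Each row is a gene, grouped by role, and each point is 1 library at the log2 of its CPM over the wild-type mean CPM (horizontal axis), with wild-type libraries in blue, libraries labelled Tet2 knockout in red and an asterisk for an edgeR adjusted p under 0.05. The red points stand to the right of the blue ones in all 7 genes of chromosome structure, while in Cdk1, Plk1, Kif22 and Anln the colours mix.

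Among the cyclins, the kinases and their transcription factor 3 of 8 genes rose, all of them cyclins. Ccnb2, which encodes cyclin B2 (ENSMUSG00000032218, mm10 chromosome 9, 70407692 to 70421547), stood at 22.7, 24 and 23.4 CPM in the libraries labelled knockout and at 14.4, 14.8 and 15.2 CPM in the wild-type libraries. The groups lay far apart (log2 difference 0.66, SE 0.09; edgeR adjusted p = 3.85e-10). Ccnb1, which encodes cyclin B1, a main mitotic partner of CDK1, stood at 43.7, 40.9 and 36.3 against 36.2, 35.6 and 35 CPM, with knockout replicate 3 next to the wild-type libraries. Its rise was smaller (0.18, SE 0.07; edgeR adjusted p = 0.0187), and it was not called without knockout replicate 1 (adjusted p = 0.215) or 2 (0.0585), without wild-type replicate 3 (0.0704) or with DESeq2 (0.0935). Within each library there were 0.518, 0.587 and 0.645 counts of Ccnb2 per count of Ccnb1 under the knockout label and 0.396, 0.415 and 0.436 in wild-type, so the balance of the B-type cyclins differed without overlap. The pairs for this and the later ratios were picked by hand, and the share of other pairs without overlap was not taken. The annotation also lists the pseudogenes Ccnb1-ps and Ccnb2-ps, with mean counts of 5.0 and 6.0, and reads could be split with these copies. Ccna2, which encodes cyclin A2 of S phase and early mitosis, rose from 31.4 ± 1.45 to 36.9 ± 1.11 CPM (SD, n = 3 each; log2 difference 0.23, SE 0.07; edgeR adjusted p = 0.00269).

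The kinases of this group gave no call. Cdk1, whose product the cyclins activate, stood at 40.4, 39.1 and 38.1 CPM under the knockout label and at 39.8, 37.5 and 39.2 CPM in wild-type, with overlapping groups (log2 difference 0.01, SE 0.06; edgeR adjusted p = 0.885). Plk1, the polo-like kinase of mitotic entry and spindle assembly, stood at 24.8, 26.6 and 25.9 against 26.5, 24.5 and 28.1 CPM, also overlapping (-0.04, SE 0.08; edgeR adjusted p = 0.740). Aurka, the kinase of spindle poles, stood at 27.4, 27.1 and 27.4 against 24.7, 26.3 and 24.7 CPM and Nek2, a kinase of centrosome separation, had a difference of 0.21 (SE 0.10). Both missed the threshold without overlap of the groups, with edgeR adjusted p = 0.223 and 0.0804. Foxm1, the transcription factor of the programme, stood at 24.3, 24.5 and 23.5 against 23.1, 20.1 and 22 CPM and was not called either (0.15, SE 0.08; edgeR adjusted p = 0.147).

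Of the members placed with the spindle checkpoint and the exit from mitosis 1 of 5 rose, where 21.6% of all genes tested were called higher. Other checkpoint and kinetochore genes stand among the 61 further genes described below, some called higher and others not. Bub1, a checkpoint kinase, stood at 23.6, 25.1 and 23.1 CPM in the libraries labelled knockout and at 18.5, 20.5 and 19.5 CPM in wild-type, without overlap (log2 difference 0.30, SE 0.08; edgeR adjusted p = 0.00195). Bub1b, which encodes the checkpoint protein BUBR1, and Ttk, which encodes the checkpoint kinase MPS1, had differences of 0.08 (SE 0.08) and 0.05 (SE 0.13) and were not called. Cdc20, the activator of the anaphase-promoting complex, had the lowest difference of the 40 genes. It stood at 37.3, 34.9 and 35 CPM under the knockout label and at 40.4, 39.5 and 37 CPM in wild-type (-0.12, SE 0.06; edgeR adjusted p = 0.116), the groups meeting at knockout replicate 1 and wild-type replicate 3. Ube2c, the ubiquitin-conjugating enzyme that works with that complex, stood at 27.4, 30.6 and 31.9 against 28.3, 27.1 and 24.2 CPM. It just missed the threshold (0.18, SE 0.07; edgeR adjusted p = 0.0522) and was called in 5 of the 17 alternative settings.

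Among the members placed with the kinetochore and chromosome motors 1 of 5 rose, again beside 21.6% of all genes tested. Cenpe, the kinetochore kinesin that carries chromosomes to the spindle equator, stood at 42.3, 42 and 41.7 CPM under the knockout label and at 36.1, 33.7 and 37.7 CPM in wild-type, without overlap (log2 difference 0.23, SE 0.06; edgeR adjusted p = 0.00198). Cenpe starts 1.75 Mb from the start of Tet2 on chromosome 3. Of the 70 tested genes within 10 Mb of Tet2 20 were higher and 17 lower, 52.9% in all, and the part of this neighbourhood in the rise of Cenpe was not tested. Cenpf, a large protein of the outer kinetochore, Kif4, a chromosome-bound kinesin, and Kif2c, a kinesin that takes microtubule ends apart, had differences of 0.11 (SE 0.08), 0.19 (SE 0.09) and 0.08 (SE 0.09) and were not called. Kif22, a motor that pushes on chromosome arms, stood at 18.3, 16.6 and 17.6 against 19.5, 18.9 and 16.3 CPM with overlapping groups (-0.06, SE 0.09; edgeR adjusted p = 0.674).

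In the chromosomal passenger complex, which corrects faulty attachments and then moves to the midzone, 1 of 3 members rose. Of all genes tested 21.6% were called higher. Incenp, its scaffold, stood at 73.8, 79.9 and 76.4 CPM in the libraries labelled knockout and at 55.6, 61.2 and 55.4 CPM in wild-type, without overlap (log2 difference 0.42, SE 0.05; edgeR adjusted p = 4.21e-12). Aurkb, its kinase, stood at 15.1, 15.1 and 16.1 against 14.5, 15.8 and 14 CPM, overlapping (0.07, SE 0.10; edgeR adjusted p = 0.640). Birc5, which encodes its subunit survivin, stood at 21.5 ± 1.10 against 20.5 ± 0.990 CPM (SD, n = 3 each; edgeR adjusted p = 0.510). Cdca8, which encodes the subunit borealin, is not one of the members and belongs to the further mitosis genes described below. It was called higher, at 25.3, 25.7 and 28.8 against 22.7, 21.5 and 20.6 CPM, without overlap (log2 difference 0.30, SE 0.08, edgeR adjusted p = 0.00126). Within each library there were 4.89, 5.28 and 4.74 counts of Incenp per count of Aurkb under the knockout label and 3.83, 3.86 and 3.95 in wild-type, so scaffold and kinase differed in proportion.

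Of the spindle motors and assembly factors 5 of 6 rose, by 0.23 to 0.32 on the log2 scale. Tpx2, which activates Aurora A on the spindle, stood at 77.8, 79.9 and 76.1 CPM under the knockout label and at 66.4, 61.1 and 68.9 CPM in wild-type, without overlap (log2 difference 0.25, SE 0.05; edgeR adjusted p = 9.02e-06). Nusap1, a microtubule-bundling protein, rose by 0.32 (SE 0.09) and Kif11, the motor that pushes spindle poles apart, by 0.29 (SE 0.08), with edgeR adjusted p = 0.00172 and 0.00146. Prc1, which bundles the central spindle, stood at 46.7, 44.1 and 38.1 against 38.2, 34.4 and 34.7 CPM, the groups meeting at knockout replicate 3 and wild-type replicate 1 (0.27, SE 0.07; edgeR adjusted p = 0.000426). Ckap2l, a spindle protein, rose with overlapping groups (0.23, SE 0.08; edgeR adjusted p = 0.0239). That call was lost without knockout replicate 1 (adjusted p = 0.0844) or 2 (0.169), without wild-type replicate 2 (0.273) and with DESeq2 (0.114). Kif15, a motor that can stand in for Kif11, had a difference of similar size with a wider error and was not called (0.27, SE 0.12; edgeR adjusted p = 0.0695).

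Among the cytokinesis genes 3 of 6 rose. Kif23 and Racgap1 encode the motor and the GTPase-activating protein of centralspindlin, which marks the cleavage plane, and both were higher. Kif23 stood at 26.5, 30.7 and 28.8 CPM in the libraries labelled knockout and at 19.8, 19.1 and 17.5 CPM in wild-type, far apart (log2 difference 0.61, SE 0.08; edgeR adjusted p = 3.02e-10). Racgap1 stood at 46.5, 49.9 and 47.6 against 41.8, 38 and 39.5 CPM, without overlap (0.27, SE 0.06; edgeR adjusted p = 0.000106). Kif20b, a kinesin of late cytokinesis, stood at 23.4, 20.4 and 26.2 against 20.8, 16.8 and 18.2 CPM with overlap (0.32, SE 0.09; edgeR adjusted p = 0.00193), and its call was lost without knockout replicate 3 (adjusted p = 0.0645). The other 3 were not called. Ect2, the exchange factor that centralspindlin recruits, stood at 23.9, 23.6 and 25 against 22.9, 22 and 18.8 CPM (0.19, SE 0.08; edgeR adjusted p = 0.0618). Anln, which encodes anillin, a scaffold of the contractile ring, stood at 47.5, 51.1 and 48.1 against 48, 50.8 and 49.4 CPM (-0.01, SE 0.06; edgeR adjusted p = 0.867). Kif20a, the motor that brings the passenger complex to the midzone, stood at 24.4, 24.6 and 26 against 25.8, 26.3 and 28.2 CPM (-0.10, SE 0.08; edgeR adjusted p = 0.313). Its ratio to Kif23 shows the split among these motors: there were 1.09, 1.25 and 1.11 counts of Kif23 per count of Kif20a under the knockout label and 0.766, 0.724 and 0.622 in wild-type.

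All 7 members grouped under chromosome structure rose, and in none did the groups overlap. Mki67, which encodes Ki-67, a coat protein of mitotic chromosomes and a common marker of cycling cells (ENSMUSG00000031004, mm10 chromosome 7, 135689784 to 135716361), stood at 165, 162 and 168 CPM in the libraries labelled knockout and at 106, 93.9 and 103 CPM in wild-type. Its difference was the largest of the 40 genes (log2 difference 0.70, SE 0.04; edgeR adjusted p = 7.31e-32), a level 62.8% higher. Top2a, the topoisomerase that untangles sister chromatids, stood at 136, 140.3 and 146 against 107, 104 and 110.3 CPM (0.39, SE 0.04; edgeR adjusted p = 1.03e-15). There were 1.21, 1.15 and 1.15 counts of Mki67 per count of Top2a under the knockout label and 0.989, 0.902 and 0.934 in wild-type, so these transcripts did not rise by the same proportion.

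The other 5 of these genes encode condensin I, which compacts chromosomes with the ATPases SMC2 and SMC4. Condensin II holds the same ATPases. Ncapg and Ncaph, subunits of condensin I alone, rose from 12.4 ± 0.607 to 16.3 ± 0.242 CPM and from 14.7 ± 0.574 to 19.3 ± 0.201 CPM (SD, n = 3 each). Their log2 differences were 0.40 (SE 0.10) and 0.39 (SE 0.09), with edgeR adjusted p = 0.000591 and 0.000247. Smc2, Smc4 and the subunit Ncapd2 rose less. Smc2 stood at 69.8, 68.6 and 69.5 against 59, 54.5 and 62.4 CPM (0.24, SE 0.05; edgeR adjusted p = 4.92e-05). Smc4 stood at 112, 114 and 118 against 103, 94.4 and 105 CPM (0.18, SE 0.04; edgeR adjusted p = 0.000145). Ncapd2 stood at 39.5, 41.7 and 41 against 37.5, 33.7 and 34.5 CPM (0.21, SE 0.06; edgeR adjusted p = 0.00594). The genes of condensin II alone, Ncapg2 (0.01), Ncapd3 (0.13) and Ncaph2 (-0.08), are outside the 40 and were not called (edgeR adjusted p = 0.936, 0.355 and 0.158). In Ncaph2 the knockout-labelled libraries stood below the wild-type libraries without overlap. Summed over the 7 members of this role the level was 566 ± 10.8 against 430.0 ± 20.0 CPM (SD, n = 3 each), 31.6% higher. The 5 condensin I genes alone summed to 260.1 ± 3.71 against 222 ± 11.1 CPM (SD, n = 3 each), 17.3% higher, so Mki67 and Top2a carried much of the sum. For the other roles the sums were higher by 22.7% (passenger complex), 20.2% (spindle), 13.4% (cytokinesis), 12.1% (cyclins, kinases and Foxm1), 9.62% (kinetochore and motors) and 5.27% (checkpoint and exit). Incenp, at 76.7 against 57.4 CPM, carried much of the passenger complex sum. Aurkb and Birc5 were not called, and the median log2 difference of that role was 0.08. Differences between the roles were not tested.

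**Figure D2:**
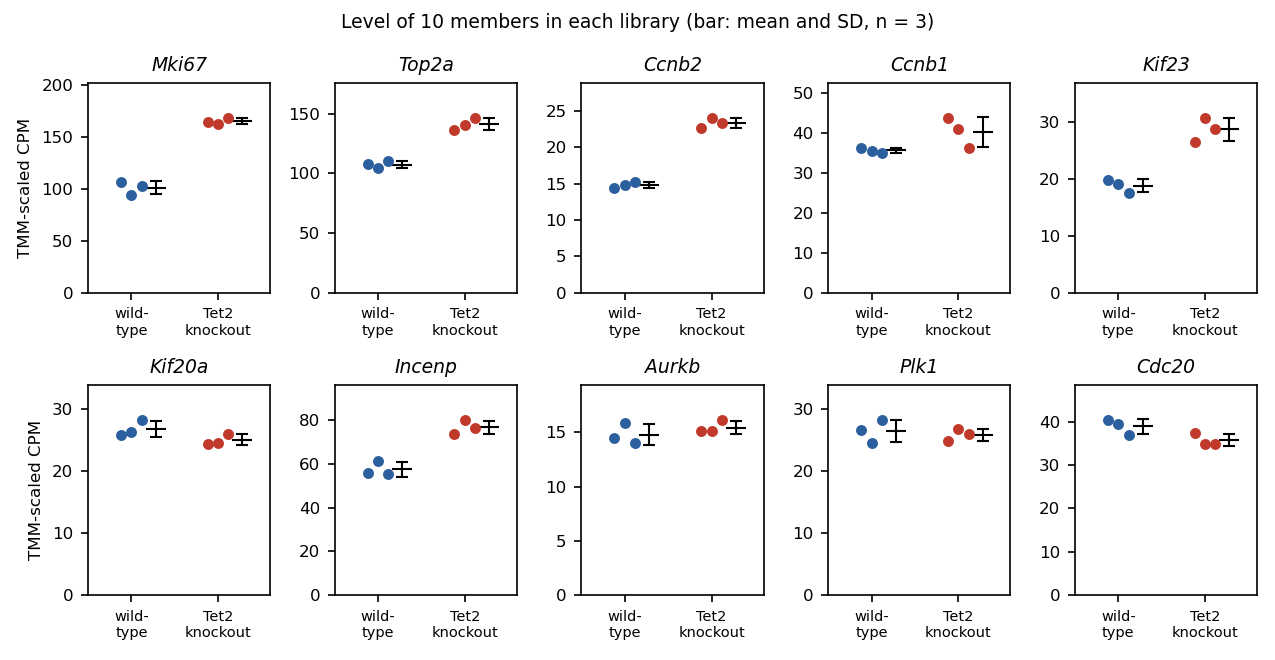
Level in TMM-scaled CPM (vertical axes, each from 0) of 10 members in each wild-type library (blue) and each library labelled Tet2 knockout (red), with the mean and SD of 3 libraries in black. The groups stand apart in Mki67, Top2a, Ccnb2, Kif23 and Incenp and meet or overlap in Ccnb1, Kif20a, Aurkb, Plk1 and Cdc20.

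Per kilobase of gene length the most abundant of the 40 transcripts were Incenp and Smc4, with mean levels of 20.8 and 20.6 RPKM (CPM per kilobase) over the 6 libraries, followed by Cdc20 at 20.0 RPKM. Kif15 was the least abundant, at 0.861 RPKM. Mki67 stood at 13.2 and Ccnb2 at 12.5 RPKM, ranks 6 and 7 of the 40 per kilobase, whereas in CPM, which longer transcripts raise, Mki67 ranked 1 and Ccnb2 31. On the opposite strand, annotated genes with a mean count of at least 10 overlap 7 of the 40: Exosc9 (Ccna2), Elovl1 (Cdc20), Pdzd11 (Kif4), Oip5 (Nusap1), Rccd1 (Prc1), Cdc23 (Kif20a) and Lcorl (Ncapg). The library kit named in the labels does not mark strand, so reads in the overlaps cannot be told apart and the values of these 7 are uncertain.

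The CHR core was found in the promoter windows of called and of uncalled members. It stood in 13 of 18 windows of genes called higher (72.2%) and in 15 of 17 windows of genes not called (88.2%), and CCAAT stood in 15 (83.3%) and 13 (76.5%) of them. The difference between these shares was not tested.

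**Figure D3:**
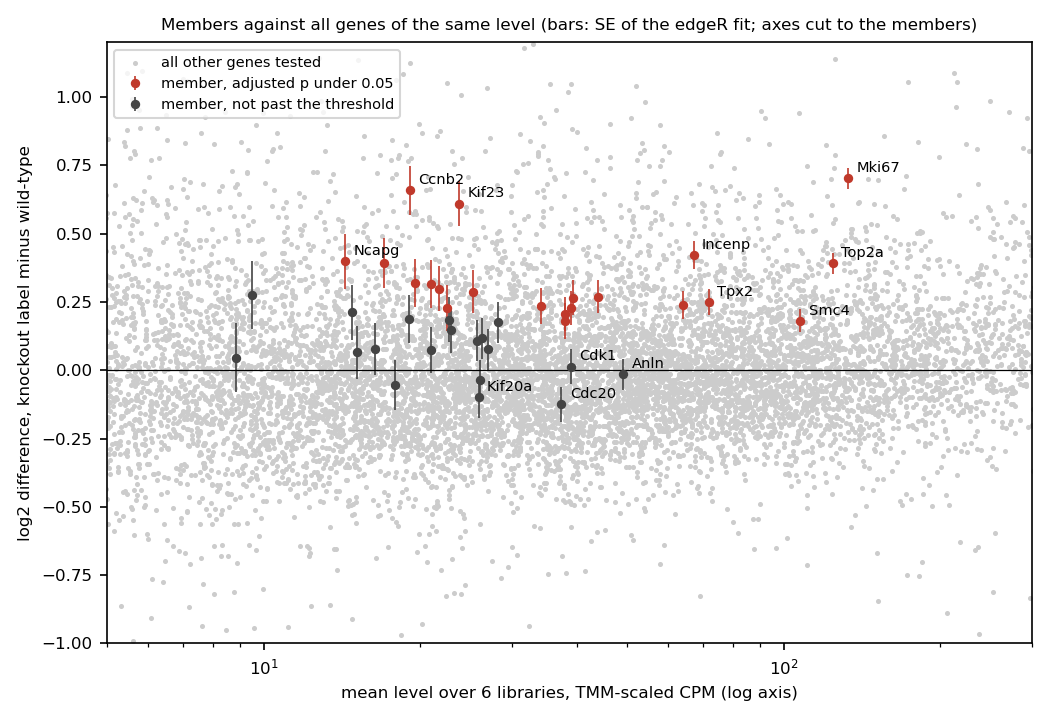
Log2 difference, knockout label minus wild-type (vertical axis), against mean level over the 6 libraries in TMM-scaled CPM (horizontal log axis), with other genes tested in grey, called members in red and the other members in dark grey, bars giving 1 SE and the axes limited to the range of the members. Called members lie above 0 at low and high levels, from Ncapg at 14.4 CPM to Mki67 at 133 CPM.

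Of 61 further mitosis and G2/M genes 20 rose (32.8%) and 3 fell (4.92%), with a median log2 difference of 0.15. The shares of all genes tested were 21.6% and 19.2%. Stmn1, which encodes the microtubule-destabilising protein stathmin, rose from 42.5 ± 0.726 to 75.2 ± 2.80 CPM (SD, n = 3 each). Kntc1, a kinetochore gene, rose by 0.53, Iqgap3, a scaffold protein gene, by 0.39 and Tacc3, a spindle gene, by 0.39 on the log2 scale. H2afx, a histone variant gene (-0.20), Hmgb2, a chromatin protein gene (-0.17), and Lmnb1, which encodes lamin B1 (-0.17), fell. These 3 falls were lost with DESeq2 (adjusted p = 0.0739, 0.0528 and 0.07), and without wild-type replicate 3 (0.0504, 0.0722 and 0.0624). Leaving out knockout replicate 1 (H2afx and Hmgb2), 2 (Lmnb1) or 3 (Hmgb2 and Lmnb1) or wild-type replicate 1 (H2afx and Lmnb1) also ended the call. DESeq2 called 14 of the 61 higher and 0 lower, and the assumed spread 8 and 0.

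Of 54 DNA replication and S phase genes 15 rose (27.8%) and 9 fell (16.7%), near the 21.6% and 19.2% of all genes tested. Their median of 0.06 was 0.10 without knockout replicate 1 or wild-type replicate 2, and 5 fell without knockout replicate 3. Mcm6, a subunit of the replicative helicase, rose from 101 ± 0.350 to 137 ± 4.14 CPM, and Pcna, the sliding clamp, from 279 ± 6.33 to 348 ± 6.05 CPM (SD, n = 3 each). Mcm10, a replication initiation factor, rose by 0.62 on the log2 scale. Rrm2, the small subunit of ribonucleotide reductase, fell from 64.6 ± 2.39 to 48.9 ± 0.479 CPM (SD, n = 3 each). With the assumed spread 3 rose and 1 fell.

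Of 16 genes of G1 cyclins, kinases and activators 5 rose (31.2%) and 2 fell (12.5%), with a median of 0.04 that ran from 0.02 (without knockout replicate 1 or wild-type replicate 3) to 0.06 (without wild-type replicate 2). Without knockout replicate 2 the counts were 3 and 1, without wild-type replicate 2 they were 3 and 2, and without wild-type replicate 3 they were 4 and 1. Ccnd1, which encodes the growth-factor-induced cyclin D1, stood at 252, 251 and 252 CPM in the libraries labelled knockout and at 148, 144 and 147 CPM in wild-type, far apart (log2 difference 0.78, SE 0.03; edgeR adjusted p = 1.98e-41). Of its kinase partners, Cdk6 rose from 222 ± 14 to 329 ± 2.41 CPM and Cdk4 fell from 141 ± 0.718 to 116 ± 0.710 CPM (SD, n = 3 each). E2f2, an activating E2F factor, rose by 0.59 on the log2 scale, a call lost without knockout replicate 2 (adjusted p = 0.0612). Cdk7, the CDK-activating kinase, fell by 0.20, a call lost with DESeq2 (0.059), without knockout replicate 2 (0.134) and without wild-type replicate 3 (0.1). Myc rose (0.19, SE 0.06; edgeR adjusted p = 0.00709), a call lost without wild-type replicate 2 (adjusted p = 0.0718). With the assumed spread 3 rose and 0 fell.

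Of 30 cell cycle brakes 6 rose (20.0%) and 8 fell (26.7%), shares not far from those of all genes tested. Their median of 0.05 was 0.0039 without wild-type replicate 1 and 0.03 without wild-type replicate 2 or knockout replicate 1 or 2. Cdkn1a, which encodes the CDK inhibitor p21, stood at 320.3, 337 and 331 CPM in the libraries labelled knockout and at 382, 402 and 394 CPM in wild-type, without overlap (log2 difference -0.25, SE 0.03; edgeR adjusted p = 1.42e-13). Btg1, an antiproliferative gene, fell from 459 ± 8.20 to 286 ± 6.81 CPM (SD, n = 3 each), and Mxi1, a MYC antagonist, fell by 0.76 on the log2 scale. Mxd1, another MYC antagonist, rose from 19.6 ± 0.672 to 48.6 ± 1.19 CPM (SD, n = 3 each). Cdkn1b, which encodes the inhibitor p27, stood at 39.6, 38.9 and 37.8 against 41, 33.5 and 34.7 CPM and was not called (0.09, SE 0.07; edgeR adjusted p = 0.308), except without wild-type replicate 1 (adjusted p = 0.0436). DESeq2 called 3 higher and 7 lower, and the assumed spread 2 and 5.

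Among 11 genes of the MuvB, B-Myb, DP and NF-Y proteins, which act at CHR, E2F and CCAAT elements, 0 rose by edgeR, also at an unadjusted p under 0.05 and with DESeq2. Lin37 (-0.43) and Nfyb (-0.34) fell, 18.2% of the 11, where 19.2% of all genes tested were called lower and 21.6% higher. The median was -0.07, or -0.04 without knockout replicate 1. Lower were 4 without wild-type replicate 3. Of 14 subunits of the anaphase-promoting complex 4 rose (28.6%), among them Anapc15 (0.81), Anapc5 (0.29) and Anapc1 (0.24). Anapc7 (-0.31) and Anapc16 (-0.22) fell (14.3%). Their median of 0.01 had no stable sign, at -0.0083 without wild-type replicate 1 and -0.0053 with upper-quartile scaling. It was 0.06 without wild-type replicate 3, 0.04 without knockout replicate 1 and 0.03 without knockout replicate 3. Of 13 cohesin genes Mau2 (0.19) and Smc1a (0.13) rose (15.4%) and 4 fell (30.8%), among them Pds5a (-0.22) and Smc3 (-0.21). The cohesin median of -0.04 was -0.02 without knockout replicate 1, -0.06 without knockout replicate 2 and -0.0046 without knockout replicate 3. Smc1a was not called without wild-type replicate 2 (adjusted p = 0.0675). With the assumed spread the calls in these lists came to 0 higher and 1 lower, 1 higher and 0 lower, and 0 in either direction.

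Of 10 tested genes of colony-stimulating factors, their receptors and Maf factors 3 rose (30%) and 3 fell (30%), where the shares of all genes tested were 21.6% and 19.2%. Their median was 0.21, or 0.05 with no filter on low counts. That median of 0.21 includes Csf3 (0.62) and Il34 (0.60), which were not called and had mean levels of only 0.94 and 2.02 CPM. Csf1r, the receptor through which marrow macrophages are driven to divide, stood at 1234, 1232 and 1242 CPM in the libraries labelled knockout and at 843, 846 and 839.9 CPM in wild-type, far apart (log2 difference 0.55, SE 0.02; edgeR adjusted p = 1.33e-41). Maf rose by 0.96 and Csf3r by 0.37. Csf2ra (-0.34) and Csf2rb (-0.06) were among those that fell, and Csf2rb was not called with DESeq2 (adjusted p = 0.0513), without knockout replicate 1 (0.169) or 2 (0.162) or without wild-type replicate 3 (0.156). Differences between these lists and the members were not tested.

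**Figure D4:**
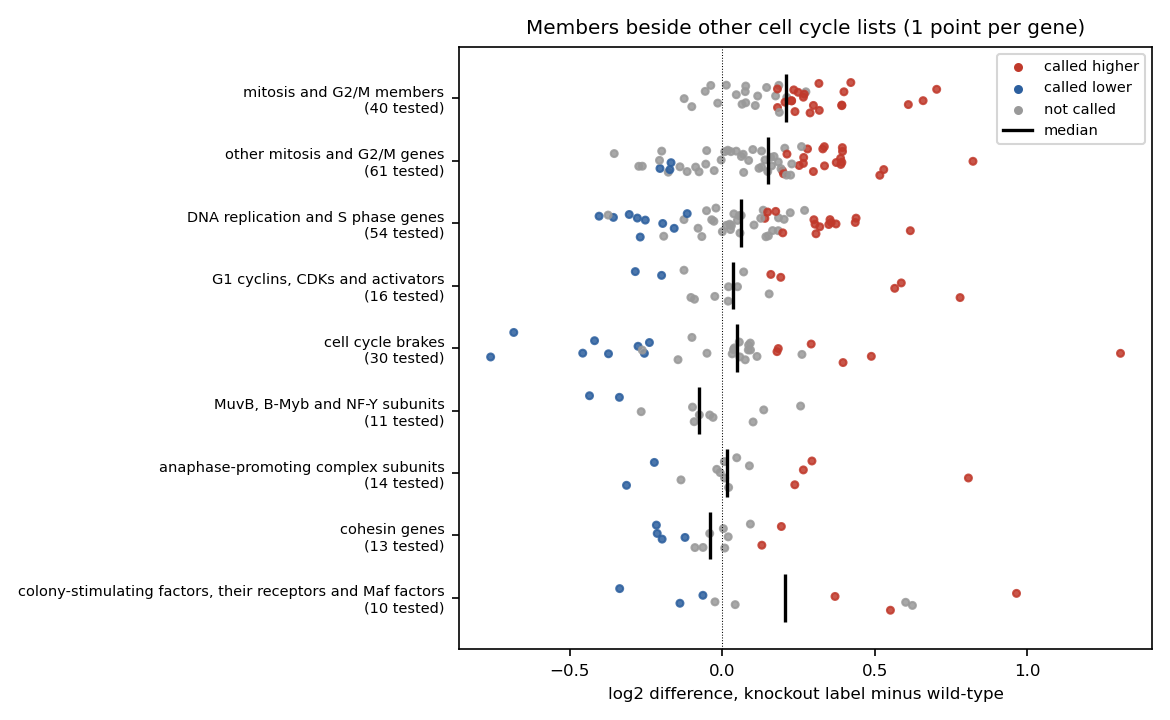
Log2 difference, knockout label minus wild-type (horizontal axis), of each tested gene of the members and of 8 other lists (rows), red where called higher, blue where called lower and grey where not called, with a black bar at the median. The members hold no blue point and have a median of 0.21. The colony-stimulating factor list also has a median of 0.21 and the further mitosis genes 0.15, and both hold both colours. The S phase genes, brakes, anaphase-promoting complex and cohesin genes hold both colours around medians of 0.06, 0.05, 0.01 and -0.04. The median of the anaphase-promoting complex changes sign without wild-type replicate 1 or with upper-quartile scaling.

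The labelled cell type showed in its markers: 11 of 12 macrophage markers were tested, with 5 higher and 4 lower, and they summed to 7372 to 7664 CPM under the knockout label and 7179 to 7579 CPM in wild-type. Fibroblast markers were also abundant, all 10 with a mean over the 6 libraries above 1 CPM, led by Col1a1 at 3195 ± 44 CPM under the knockout label and 3453 ± 163 CPM in wild-type (SD, n = 3 each). Of these 6 were lower and 1 higher, and their sum was 7085 to 7265 CPM against 7587 to 8100.1 CPM, lower under the knockout label, where the summed mitosis genes were higher. The part of such cells in the mitosis values was not tested. Of 10 myeloid progenitor markers 8 were under 1 CPM, with Ms4a3 at 0 in all libraries, and the sum was 21.2 to 24.4 CPM against 28.9 to 29.8 CPM. All markers of B cells, NK cells, erythroid cells and mast cells were under 1 CPM. Of 10 neutrophil markers 8 were under 1 CPM, with Ly6g at 0, and the sum was 30.1 to 32.6 CPM against 30.3 to 31.9 CPM. Of 7 T cell markers 6 had a mean over the libraries under 1 CPM, with Cd3d and Cd3g at 0, and the sum, mostly Cd4, was 12.4 to 13.7 CPM against 4.55 to 4.96 CPM. Sums for the remaining lists were 6.46 to 7.95 CPM against 4.05 to 6.19 CPM for dendritic cells, 129 to 135 CPM against 90.3 to 95.3 CPM for endothelial cells and 123 to 129 CPM against 109.7 to 128 CPM for platelets.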

How the data were processed

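The authors deposited raw counts, 1 integer for each gene and library, with no normalization. Per the submitters' processing notes, fastp, STAR, featureCounts and mm10 were used; versions, the annotation and strand settings are not given in the sources used here. All 6 libraries were used, with 0 per-sample columns left unused and 0 rows without a gene name. Genes were filtered with filterByExpr (minimum count 10), scaled by TMM and tested in edgeR 4.0.16 (R 4.3.3, robust quasi-likelihood, two-sided, prior count 0.125, Benjamini-Hochberg adjustment over all 13175 genes, threshold 0.05), after tests on simulated data. DESeq2 1.42.0 and limma 3.58.1 gave alternatives, DESeq2 on the same filtered genes. Figures were drawn with matplotlib 3.10.9.

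The members and lists were chosen with earlier results of these data known. All members could be named. Of each other list the called genes with the smallest p, up to 4, were named, with those against the majority of their list where there were 5 or fewer. Cdca8, the condensin II genes, Csf3 and Il34 were named in addition. Tet2, Csf1r, Cdkn1a, Cdkn1b, Ccnd1 and Myc were always named. For 1 gene that the rule names, the result is not reported here. Promoter sequences are RefSeq's, and 7 members had no match in that table. Pseudogenes and overlapping genes were taken from the annotation. Count depth limits precision, and exact permutation over 3 against 3 libraries cannot go below p = 0.1.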

Additional observations from a re-analysis of the deposited data

How the results depend on the processing

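Over 17 alternative settings 0 members were called lower in any, and the number called higher left the range of 19 to 23 only with an assumed biological coefficient of variation of 0.1, where it was 7. The same 7 members were called in all 17 settings, and 18 of the 21 were called whichever single library was left out. With the assumed coefficient 1222 genes of all tested were called higher and 663 lower; leaving out 1 library gave 2580 to 2700 higher and 2138 to 2477 lower. Leaving out 1 library gave 19 to 23 members called higher and a member median of 0.18 to 0.23, the lowest without knockout replicate 2. The Tet2 difference was above 0 in all settings, but its call was lost with DESeq2 (0.19, adjusted p = 0.0691), with the assumed coefficient (0.20, adjusted p = 0.350) and, in a setting chosen after seeing the data, with GC and length trends removed by limma (0.084, adjusted p = 0.339); leaving out 1 library gave 0.16 to 0.23, with the call lost without knockout replicate 2 (adjusted p = 0.0553) or wild-type replicate 2 (adjusted p = 0.0799). The causes were not tested. Libraries of the same replicate number did not deviate together (r of 0.00402, -0.00609 and -0.0137), so the numbers were not read as pairs; with the replicate block 21 members were called higher and 0 lower. Groups of 3 and counts from 99 per library limit what could be called among the less abundant members.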
